A study of Mus musculus with 3 samples.

Results

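Transcripts of the mitochondrial respiratory chain were followed in mouse embryonic stem cell progeny labelled as Snail-induced or untreated and sorted by the surface receptor Flk1. The genes were taken by symbol: all those beginning with Ndufa, Ndufb, Ndufc, Ndufs or Ndufv (complex I), with Uqcr (complex III), with Cox4 to Cox8 (complex IV) or with Atp5 (complex V, the ATP synthase), together with Sdha, Sdhb, Sdhc and Sdhd (complex II). No expression value enters this symbol rule. It gave 90 of the 18193 genes on the array, read by 179 probe sets. Of these, 88 were measured, meaning reaching 25.6 intensity units on 1 or more arrays, a floor set at the 40th percentile over all arrays. Ndufb4 and Cox6a2 were under it on every array by their probe sets with a single symbol. The probe sets that Ndufb4 shares with its copies Ndufb4b and Ndufb4c were bright and are given at the end. The 88 comprised 35 genes of complex I, 4 of complex II, 8 of complex III, 16 of complex IV, 17 of complex V and 8 Ndufaf genes, which share the prefix but encode assembly factors and not subunits. Ndufs6, Ndufa11, Cox7b, Ndufb4b and Ndufb4c, among others, had no probe set with a single symbol and do not enter the comparisons.

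The cells belonged to A2.snail, an embryonic stem cell line with a doxycycline-inducible Snail, a zinc finger repressor that drives epithelial to mesenchymal transition. All cultures were differentiated as embryoid bodies with serum and the Wnt inhibitor DKK1, and RNA was taken from sorted cells at day 3. The groups, with 1 Affymetrix array each, were Flk1- cells that had received no doxycycline (untreated Flk1-) and, from cultures that received doxycycline at 250 ng/mL on day 2, Flk1- cells (Snail-induced Flk1-) and Flk1+ cells (Snail-induced Flk1+). Flk1 is the VEGF receptor of mesoderm that can form endothelium and blood, encoded by Kdr. The design holds no untreated Flk1+ array here, no doxycycline-treated cells without the transgene, and a single cell line, so Snail, doxycycline and the Flk1 gate are only partly separated. With 1 array per group no difference has a replicate check, no p-value is given, and the number of arrays limits the precision.

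The respiratory chain passes electrons from NADH (complex I) or succinate (complex II) through ubiquinone, complex III and cytochrome c to oxygen at complex IV, and the proton gradient built on the way drives the ATP synthase. A few subunits of each complex are encoded in mitochondrial DNA and the others by the nuclear genes followed here, so the complexes need matched supply from both genomes. Several complex IV subunits exist in a widely expressed form and in a form restricted to muscle, lung or testis. Pluripotent cells are known for a high rate of glycolysis beside an active respiratory chain, and the balance between the 2 shifts as lineages form.

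The labels were checked on marker genes. Kdr stood at 10.5 and 9.73 in untreated and Snail-induced Flk1- cells and at 404 in Flk1+ cells, which follows from the sort. The Snai1 probe set gave 29.1, 13.1 and 19.8 in the order untreated Flk1-, Snail-induced Flk1-, Snail-induced Flk1+, near or under the floor, and so checks nothing about induction; the same order is used for every set of 3 intensities below. The 5 pluripotency markers (Pou5f1, Nanog, Sox2, Zfp42, Utf1) were above the floor on every array and summed to 15757, 17528 and 7310 intensity units. The 7 endothelial and hemangioblast markers summed to 614, 974 and 6938, with 4, 4 and 7 above the floor, and the 5 epithelial markers to 14254, 5660 and 1175. Sums were low for 6 primitive erythroid (189, 151 and 218), 6 cardiac muscle (299, 359 and 464) and 6 feeder fibroblast markers (452, 755 and 464); Klf1, Alas2, Myh7 and Postn were under the floor on every array.

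The first comparison, Snail-induced against untreated Flk1- cells, asked whether respiratory chain genes differed with Snail in cells that stayed Flk1-. They differed little. On the log2(intensity + 9.53) scale, where the offset is the 20th percentile of all values, the median difference of the 88 genes was 0.02, with an interquartile range from -0.06 to 0.10, against a median of 0.04 for all 13969 measured genes. Of the 88, 39 were lower, or 44.3%, beside 45.1% of all measured genes and 38.8% of 1654 genes of like brightness. That name stands here for genes whose mean level reached the lower quartile of the 88. Members below this quartile are dimmer than each of the 1654, so the name holds only for the other members. At 80% of the untreated level or less on this scale were 5, or 5.68%, beside 17.5% of all measured genes and 2.9% of the genes of like brightness. All 5 (Cox4i2, Cox7a1, Cox8c, Ndufb1 and Uqcrq) were below the lower quartile, so 2.9% is no like background for them. By the same fold or more, 2 were higher (beside 20% of all measured genes). At least 1.5-fold lower was 1, Cox4i2, and at least 1.5-fold higher 1, Cox7b2, which lies about the floor (beside 7.82% and 8.48%). None was 2-fold apart (0 lower and 0 higher, beside 2.03% and 2.95% of all measured genes and 0.0605% and 0.121% of those of like brightness). When each array was instead centred on its median over measured genes, 75% of the 88 were lower, while their median was -0.08 and that of all measured genes -0.06. The sign of so small a shift therefore depended on the scaling.

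Complex by complex the medians of the first comparison stayed close to that of all genes: 0.03 for complex I, 0.13 for complex II, -0.01 for complex III, 0.03 for complex IV, 0.00 for complex V and 0.01 for the Ndufaf genes. The complex II value turned to -0.01 when all probe sets of a gene were averaged, those under the floor included. The second Sdha probe set was lower (1581, 1475 and 1529) where the brightest was higher (2473, 2855 and 2372), and the 2 others were under the floor. Among complex I genes, Ndufb1, a small accessory subunit of the membrane arm, was the lowest, at 1848, 1423 and 1443, a log2 difference of -0.37. Ndufa1 was the highest, at 3847, 4536 and 4367, a difference of 0.24. In complex III, Uqcrq, a small subunit beside the ubiquinone-binding core, stood at 1591, 1218 and 952, lower by 0.38 in the first comparison, although 1 of its 2 dimmer probe sets was slightly higher.

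The second comparison, Flk1+ against Flk1- cells of the same Snail-induced culture, gave a different picture. Most respiratory chain genes were slightly lower in Flk1+ cells, in every complex. The median log2 difference of the 88 genes was -0.18, a level about 11.5% lower, with an interquartile range from -0.33 to -0.07, against a median of 0.00 for all measured genes and -0.03 for the 1654 genes of like brightness. Of the 88, 73 were lower, or 83%, beside 49.9% of all measured genes and 54.4% of those 1654. The Flk1+ array was the lowest of the 3 for 65 of the 88, beside 38.3% of all measured genes. The shift was small for each gene. At 80% of the Snail-induced Flk1- level or less were 23, or 26.1%, beside 23.2% of all measured genes, a share near that background. The share of the genes of like brightness was 12.9%. Several of the 23, among them Cox7a1, Cox6b2, Uqcr11, Uqcrq and Ndufaf7, are dimmer than those genes, so 12.9% is no like background for them. By that fold or more 2 were higher, beside 23.7% of all measured genes. At least 1.5-fold lower were 4 and higher 1, beside 11.7% and 12.5%. At least 2-fold lower was 1, Cox7a1, and at least 2-fold higher was 1, Cox4i2, beside 4.89% and 4.85% of all measured genes. For the genes of like brightness these shares were 1.39% and 1.45%, but Cox7a1 and Cox4i2 are both dimmer than those genes. In bulk samples like these, fewer cells of a type and less RNA per cell cannot be told apart.

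**Figure D1:**
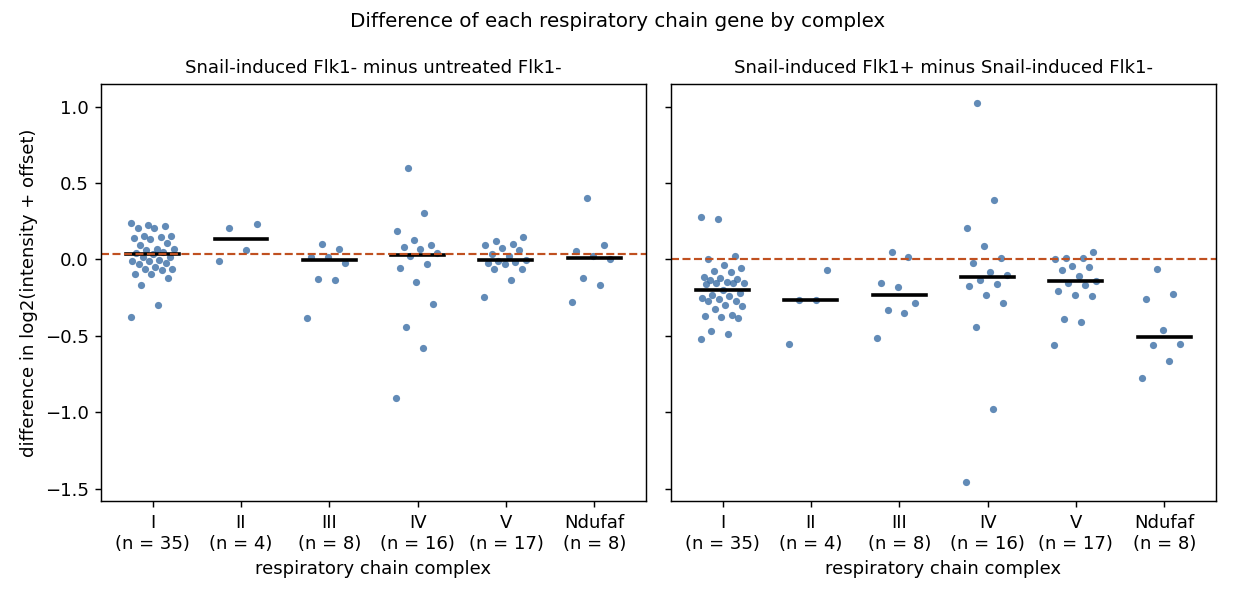
Difference in log2(intensity + 9.53) of each of the 88 measured genes (points), by complex, for Snail-induced minus untreated Flk1- cells (left) and Snail-induced Flk1+ minus Flk1- cells (right); black bars are medians over genes and the dashed line is the median of all measured genes. On the right the median of every complex lies under the dashed line, from -0.12 in complex IV to -0.51 in the Ndufaf genes, while on the left the medians lie between -0.01 and 0.13.

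**Figure D2:**
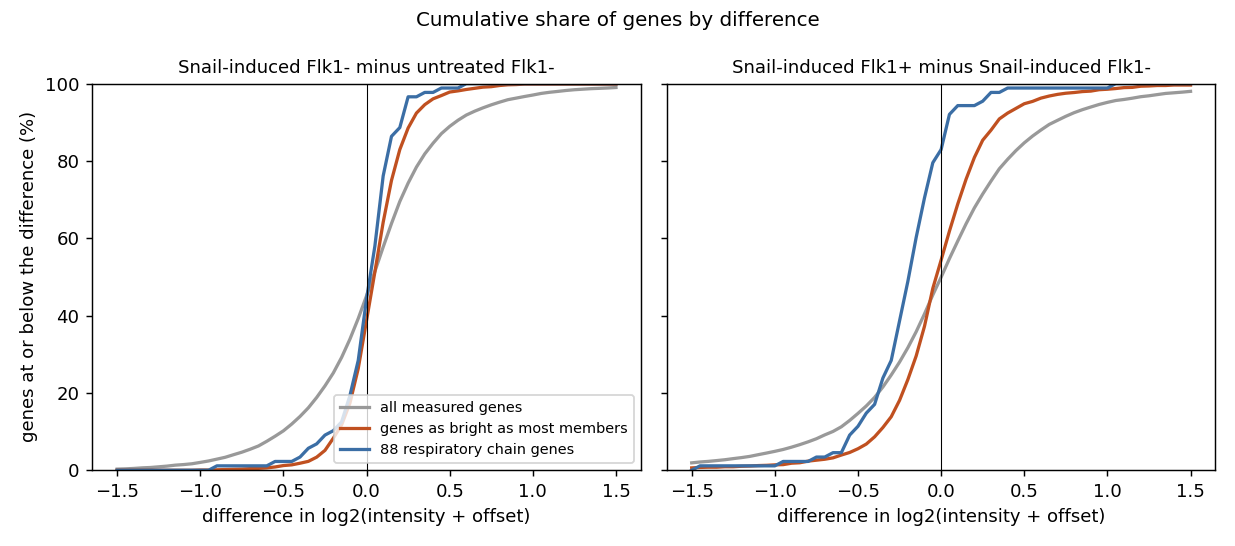
Cumulative percentage of genes at or below each log2 difference, for the 88 respiratory chain genes, the 1654 measured genes with a mean at or above their lower quartile, and all 13969 measured genes. In the right panel the curve of the respiratory chain genes lies to the left and crosses 0 at 83%, where the other curves cross it at 54.4% and 49.9%.

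The medians of the second comparison were -0.20 for complex I (31 of 35 lower), -0.26 for complex II (4 of 4), -0.23 for complex III (6 of 8), -0.12 for complex IV (11 of 16), -0.14 for complex V (13 of 17) and -0.51 for the Ndufaf genes (8 of 8). For the 48 genes with a second probe set above the floor, that probe set was lower in 40 and had the sign of the brightest in 35, with a median of -0.17 against -0.18 by the brightest. The 2 probe sets of a gene differed by 0.15 at the median, about as much as the shift itself, so the order of single genes within the shift is loosely determined. Such probe sets share an array and an RNA sample and are no replicates.

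In complex I, the 6 measured core subunits were all lower in Flk1+ than in Snail-induced Flk1- cells. Most of the 6 carry the flavin, iron-sulfur clusters or the ubiquinone site. By the brightest probe sets the median of the 6 was -0.33, against -0.15 over the 29 other subunits (25 lower). The size of this gap is loosely determined. By the second probe set the difference was -0.31 for Ndufs7, -0.11 for Ndufv1, -0.18 for Ndufv2 and -0.34 for Ndufs8. The brightest gave -0.52, -0.37, -0.37 and -0.30. Ndufs1 and Ndufs3 have 1 probe set each. Ndufs7, which holds the last iron-sulfur cluster, stood at 2053, 1924 and 1338, a difference of -0.52, and its second probe set at 1929, 1785 and 1437. Ndufv2, which holds an iron-sulfur cluster of the NADH-oxidising module, stood at 4481, 4200 and 3249, lower by 0.37. The array of Flk1+ cells was the lowest for both, with the Flk1- arrays close together. Ndufv1, which binds NADH and flavin, stood at 2391, 2753 and 2134. Ndufs8, with 2 iron-sulfur clusters, stood at 2199, 2445 and 1982, so the Snail-induced Flk1- array was the highest for these. Ndufs1, the largest subunit, stood at 1750, 1693 and 1469, and Ndufs3 of the ubiquinone module at 2265, 2489 and 2247, so that Ndufs3 ended in Flk1+ cells where it stood in untreated ones.

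Among the accessory subunits of complex I, Ndufa6 was the lowest in Flk1+ cells, at 2809, 2682 and 1909, a difference of -0.49 from Snail-induced Flk1- cells. Ndufv3, beside the NADH-oxidising core, stood at 3548, 3928 and 2842, a difference of -0.47. Ndufab1, the mitochondrial acyl carrier protein, which also serves fatty acid synthesis, stood at 5114, 4546 and 3764. It was lower at each step. The genes that went the other way were few. Ndufa8 stood at 2238, 2317 and 2785, a difference of 0.26. Ndufa4 stood at 3350, 3917 and 4740, higher by 0.23 and then by 0.27, and 1.41-fold higher in Flk1+ than in untreated cells. Its product was first counted with complex I and was later found in complex IV; of the 88 genes it was the furthest above its untreated level in Flk1+ cells. Ndufa4l2, its hypoxia-induced relative, stood at 97.8, 77.6 and 68.9, lower at both steps.

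Complex II links the citric acid cycle to the chain. Sdhd, one of its membrane anchors, stood at 2186, 2283 and 1552, a difference of -0.55 between Flk1+ and Snail-induced Flk1- cells, and its dimmer probe set at 223, 209 and 142. Sdhb, the iron-sulfur subunit, stood at 3479, 3453 and 2876, and Sdha, the flavoprotein, at 2473, 2855 and 2372. Sdhc, the other anchor, stood at 1211, 1421 and 1352, with the smallest difference of the 4 between Flk1+ and Snail-induced Flk1- cells (-0.07) and the largest in the first comparison (0.23). By the brightest probe sets the Flk1+ array was thus below both Flk1- arrays for Sdha, Sdhb and Sdhd, and between them for Sdhc. For Sdha the margin was narrow, and its second probe set (1581, 1475 and 1529) placed the Flk1+ array between the others.

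In complex III, Uqcr11 was lowest in Flk1+ cells, at 1545, 1406 and 980, a difference of -0.52. Uqcrfs1, the Rieske iron-sulfur protein, stood at 3974, 4024 and 3303. Uqcr10, a small membrane subunit, stood at 1930, 1895 and 1501, and its 2 other probe sets were also lowest in Flk1+ cells. Of the core proteins, Uqcrc1 stood at 2614, 2392 and 2148, and Uqcrc2 at 3183, 3218 and 3336. Uqcrc2 and Uqcrb (9935, 10398 and 10526) were slightly higher in Flk1+ cells by the brightest probe set and lower by the second (1981, 1905 and 1676 for Uqcrc2, and 2613, 2516 and 2254 for Uqcrb). Uqcrq was lower by 0.35, but both of its dimmer probe sets were slightly higher, and with the mean of all 4 of its probe sets, 1 of them under the floor, the difference was 0.11.

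In complex V, the 5 subunits of the catalytic F1 head were all lower in Flk1+ cells, with a median of -0.17, and the 12 others had a median of -0.06, with 8 lower. Atp5d, of the rotating central stalk, stood at 4687, 3948 and 2965, lower by 0.25 and then by 0.41; its second probe set gave 1710, 1365 and 1125. Atp5e, another stalk subunit, stood at 2126, 2123 and 1616. The catalytic and nucleotide-binding subunits Atp5b (9507, 9650 and 8730) and Atp5a1 (7244, 7767 and 6906) differed less. The c subunit of the proton-conducting ring is made from Atp5g1, Atp5g2 and Atp5g3, which encode the same mature protein behind different import signals. Atp5g1 stood at 2179, 1985 and 1346, a difference of -0.56 between Flk1+ and Snail-induced Flk1- cells. Atp5g2 stood at 4866, 5393 and 4592, a difference of -0.23, and Atp5g3 at 8775, 8409 and 8455, a difference of 0.01. The 3 genes for this protein thus spanned nearly the whole range of differences seen in complex V, from -0.56 to 0.05. Atp5h (5289, 5743 and 5937) and Atp5pb (7455, 7397 and 7457), of the peripheral stalk, were level or slightly higher by the brightest probe set, whereas their second probe sets were lowest in Flk1+ cells.

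Complex IV held the largest differences among the finished complexes, all in forms restricted to few tissues. Cox7a1, the heart and skeletal muscle form, stood at 180, 130 and 41.2; it was 1.36-fold lower in Snail-induced than in untreated Flk1- cells and a further 2.75-fold lower in Flk1+ cells, which makes 3.73-fold between the ends. The widely expressed Cox7a2 stood at 8455, 8293 and 7429 over the same arrays. Cox6b2, the testis form, stood at 596, 574 and 287, nearly level between the Flk1- arrays and in Flk1+ cells 1.97-fold below Snail-induced and 2.04-fold below untreated Flk1- cells. Its counterpart Cox6b1 stood at 7481, 8156 and 8042. Cox4i2, a form of lung and hypoxic tissue, stood at 71.2, 33.6 and 78.2, low on the Snail-induced Flk1- array alone, 1.87-fold below untreated and 2.04-fold below Flk1+ cells. Its counterpart Cox4i1 stood at 7541, 7979 and 7439. Cox8c, a testis form, was also lowest on that array, at 319, 210 and 278; its second probe set (41.2, 8.59 and 23.8) was under the floor on 2 arrays, so its order is not determined. Cox4i2 is dim and rests on 1 probe set, and its 2-fold call was lost with quantile normalisation (a log2 difference of 0.96).

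**Figure D3:**
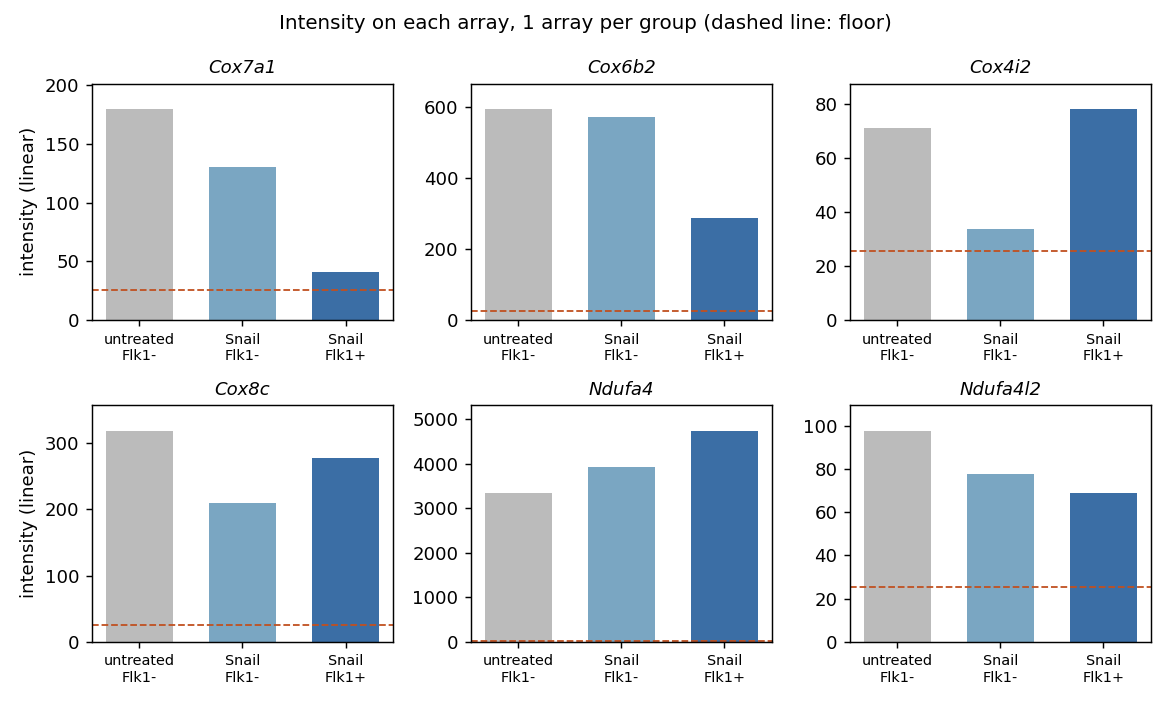
Intensity (linear scale from 0, 1 bar per array, no replicates) of Cox7a1, Cox6b2, Cox4i2, Cox8c, Ndufa4 and Ndufa4l2 in untreated Flk1-, Snail-induced Flk1- and Snail-induced Flk1+ cells; the dashed line is the floor of 25.6. Cox7a1 and Cox6b2 are lowest in Flk1+ cells, Cox4i2 and Cox8c are lowest in Snail-induced Flk1- cells, and Ndufa4 is highest in Flk1+ cells.

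The remaining complex IV genes were closer together. Cox5a stood at 8372, 6830 and 7266, lower by 0.29 in Snail-induced Flk1- cells, and Cox5b at 7848, 8388 and 6881, lower by 0.29 in Flk1+ cells. Cox6a1 (8116, 8527 and 8042) and Cox8a (3222, 3267 and 2895) differed by less than 0.2 in both comparisons. Cox7a2l, whose product joins complexes III and IV, stood at 3765, 4284 and 3902. Cox7c, read here by dim probe sets, stood at 154, 192 and 193. Cox8b (25.7, 22.3 and 27.2) and Cox7b2 (17.9, 32.0 and 21.0) lay about the floor and Cox6a2 (5.07, 12.4 and 7.17) under it, so their order is not determined. Without the restricted forms (a check added after the values were seen), 0 genes were 2-fold apart in any comparison and the median of the second comparison was again -0.18.

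The third comparison, Flk1+ against untreated Flk1- cells, shares both of its arrays with the others and is their sum. The median of the 88 genes was -0.16, and 69 were lower (78.4%, beside 48.7% of all measured genes and 47.8% of those of like brightness). At 80% of the untreated level or less were 23, or 26.1%, beside 24.8% of all measured genes, a share near that background. The share of the genes of like brightness was 15.2%. Several of the 23, among them Cox7a1, Cox6b2 and Ndufaf7, are dimmer than those genes, so 15.2% is no like background for them. By that fold or more 1 was higher, beside 27.7% of all measured genes. At least 1.5-fold lower were 10 and higher 0, beside 14.1% and 16.7%. At least 2-fold lower were 2, Cox7a1 and Cox6b2, or 2.27%, beside 6.41% of all measured genes and 2% of those of like brightness. Both are dimmer than the genes of like brightness. At least 2-fold higher were 0, beside 8.1% of all measured genes and 2.96% of those of like brightness.

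The Ndufaf genes encode proteins that help to build complex I and are absent from the finished enzyme. All 8 were lower in Flk1+ than in Snail-induced Flk1- cells, beside 49.9% of all measured genes. Ndufaf7, an arginine methyltransferase that acts on a core subunit, stood at 428, 429 and 247, 1.71-fold lower. Ndufaf3 stood at 596, 488 and 305, 1.58-fold lower, and its partner Ndufaf4 at 705, 715 and 610. Ndufaf5, which hydroxylates Ndufs7, stood at 251, 262 and 174, and Ndufaf1 at 591, 633 and 429. Ndufaf6 stood at 629, 559 and 403. For Ndufaf1, Ndufaf3, Ndufaf5, Ndufaf6 and Ndufaf7 the Flk1+ value was at 80% or less of both Flk1- values. The share of all measured genes that met both was not counted. It was 23.2% against Snail-induced and 24.8% against untreated Flk1- cells, each taken alone. Ndufaf2, higher in Snail-induced than in untreated Flk1- cells, stood at 1223, 1618 and 1353, and Ndufaf8 at 887, 815 and 781.

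Other genes that serve mitochondria were read from lists to place these values. Beside the counts below, 49.9% of all measured genes were lower in the second comparison and 45.1% in the first. Among 15 complex I assembly genes, 8 of them the Ndufaf genes above, the median of the second comparison was -0.26 with 12 lower. Ecsit (343, 278 and 170) and Tmem126b (88.7, 107 and 58.6) were among the lowest. The 3 that were higher, Timmdc1 (by 0.02), Acad9 (by 0.02) and Tmem186 (by 0.13), were all outside the Ndufaf genes. Among 30 genes for assembly of complexes II to V the median was -0.16 with 22 lower, and Atpaf1, an assembly factor of the F1 head, stood at 443, 327 and 182, which makes 2.37-fold between the ends. The 76 genes of the mitochondrial ribosome, which makes the subunits encoded in mitochondrial DNA, had a median of -0.28 with 69 lower, and -0.10 with 55 lower in the first comparison. Mrps34 stood at 2290, 1482 and 1061 and was lower at each step, and Mrpl16 at 1081, 972 and 601. The 22 genes of mitochondrial import had a median of -0.13 with 16 lower.

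The 19 genes of the citric acid cycle and pyruvate entry had a median of -0.07 in the second comparison with 12 lower and 0 past 2-fold. The 18 genes of electron carriers and ubiquinone synthesis had a median of -0.15 with 12 lower. These were 63.2% and 66.7%, beside 49.9% of all measured genes. Of the 18, Gpd2, the mitochondrial glycerol 3-phosphate dehydrogenase, stood at 2521, 2212 and 1058 and was the single one past 2-fold. Cyc1, a complex III subunit that the symbol rule does not take, was in that list and stood at 6637, 5869 and 5011. Cycs, which encodes cytochrome c, stood at 6472, 5347 and 5926. The 15 genes of fusion, fission and cristae had a median of -0.02. The 42 genes of the cytosolic ribosome had a median of -0.06 with 32 lower, a smaller median than that of the chain, with 76.2% of its genes lower; Rpl39l, a copy of a ribosomal protein gene, stood apart at 453, 712 and 139.

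Regulators of mitochondrial gene expression had a median of -0.28 over 20 genes in the second comparison, with 14 lower (70%, beside 49.9% of all measured genes). Of the 20, Mterf1a alone was at least 2-fold lower and 0 were at least 2-fold higher, beside 4.89% and 4.85% of all measured genes. Mterf1a, a mitochondrial transcription factor, stood at 158, 165 and 71.9. Ppargc1b, a coactivator of nuclear genes for mitochondrial proteins, stood at 357, 280 and 145, and Tfb1m, which methylates mitochondrial ribosomal RNA, at 495, 417 and 228. Nrf1, whose product binds many promoters of respiratory genes, stood at 618, 497 and 380, and Polg, the mitochondrial DNA polymerase, at 1292, 1314 and 742. Others of the list were higher in Flk1+ cells: Gabpb1, the partner of GABPA, stood at 451, 541 and 863, and Esrrg, near the floor, at 26.4, 19.8 and 38.8. Esrra, a nuclear receptor of respiratory genes, was higher by 0.37 in Flk1+ than in Snail-induced Flk1- cells. Among carriers and uncoupling proteins (10 genes, median 0.02), Slc25a4, an ADP/ATP carrier, stood at 3451, 4327 and 5409, highest in Flk1+ cells. Ucp3 stood at 81.7, 28.1 and 66.3, with its low value on the same array as Cox4i2. Ucp1, under the floor in both Flk1- samples, stood at 17.8, 11.5 and 41.9, and Slc25a31, a germ cell ADP/ATP carrier, at 80.1, 62.2 and 32.2. No mitochondrially encoded subunit was among the probe sets used here.

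**Figure D4:**
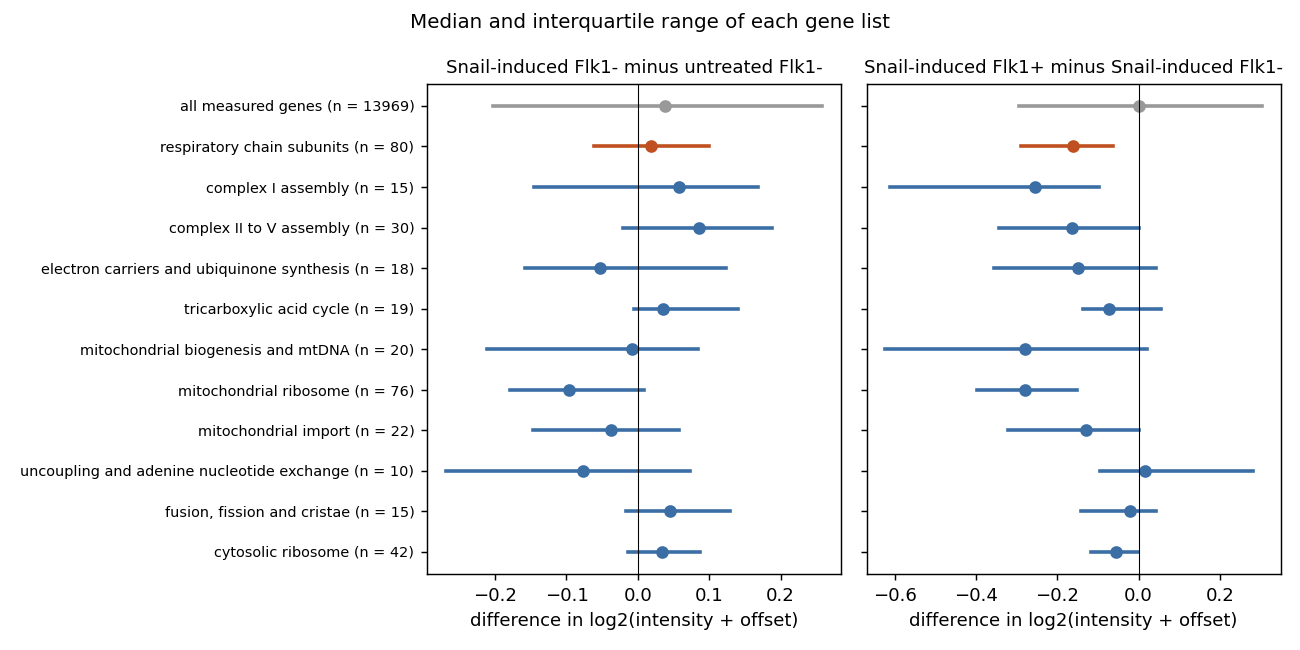
Median (point) and interquartile range (line) of the log2 difference for all measured genes (grey), the 80 respiratory chain subunits without Ndufaf genes (orange) and the gene lists (blue), for both comparisons; n is the number of measured genes. In Flk1+ against Snail-induced Flk1- cells the subunits lie at -0.16, the mitochondrial ribosome at -0.28 and the citric acid cycle at -0.07.

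The differences between Flk1+ and Flk1- cells in respiratory genes stood beside those in the markers given above: pluripotency markers summed to 17528 in Snail-induced Flk1- and 7310 in Flk1+ cells, and endothelial markers to 974 and 6938. Their part in the lower respiratory chain values was not tested.

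Promoter sequence was read for the genes that differed most between Flk1+ and Snail-induced Flk1- cells, to show what lies before their starts. The 150 bases before the start are given for the lowest gene of each complex and for Ndufa4, the highest of complex I, from RefSeq on GRCm38.p6, written 5′ to 3′ on the gene's strand, with matches in capitals. The motifs searched on both strands in the 250 bases before the start were GCGCANGCG (the core of the NRF1 site), CCGGAAG (ETS factors, among them GABPA), AANATGGCG (YY1), TNAAGGTCA (estrogen-related receptors) and, for the core promoter element that binds TBP, TATAAA.
Ndufs7, chr10:80249299-80249448, plus strand: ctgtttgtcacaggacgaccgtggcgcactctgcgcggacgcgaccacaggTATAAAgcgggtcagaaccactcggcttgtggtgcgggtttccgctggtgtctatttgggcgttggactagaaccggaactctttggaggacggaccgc
Sdhd, chr9:50603850-50603999, minus strand: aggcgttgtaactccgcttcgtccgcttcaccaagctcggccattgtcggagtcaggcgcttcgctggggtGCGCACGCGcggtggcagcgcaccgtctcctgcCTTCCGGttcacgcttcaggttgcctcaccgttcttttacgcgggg
Uqcr11, chr10:80406822-80406971, minus strand: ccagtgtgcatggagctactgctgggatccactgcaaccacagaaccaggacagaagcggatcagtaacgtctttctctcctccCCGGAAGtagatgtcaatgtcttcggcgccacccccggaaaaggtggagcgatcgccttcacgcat
Cox7a1, chr7:30184021-30184170, plus strand: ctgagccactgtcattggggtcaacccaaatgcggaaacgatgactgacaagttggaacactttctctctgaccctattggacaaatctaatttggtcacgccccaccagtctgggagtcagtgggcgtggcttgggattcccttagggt
Atp5g1, chr11:96075632-96075781, minus strand: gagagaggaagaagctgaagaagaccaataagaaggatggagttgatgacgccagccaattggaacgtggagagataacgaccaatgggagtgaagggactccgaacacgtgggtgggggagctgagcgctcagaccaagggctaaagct
Ndufa4, chr6:11907451-11907600, minus strand: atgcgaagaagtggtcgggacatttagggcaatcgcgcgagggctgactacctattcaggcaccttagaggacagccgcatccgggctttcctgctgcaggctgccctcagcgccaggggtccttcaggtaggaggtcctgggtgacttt

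Of the sequences shown, Sdhd held an NRF1 match 79 bases and an ETS match 46 bases before the start, Uqcr11 an ETS match at 66 bases and Ndufs7 a TATAAA match at 99 bases. Cox7a1, Atp5g1 and Ndufa4 held none. Over the 73 measured members with a promoter entry, 12 (16.4%) held an NRF1 match and 14 (19.2%) an ETS match, where 11.5% and 14.2% of 11207 measured genes and 5.86% and 7.83% of all 27025 genes with an entry did. YY1 matches were found in 3 (4.11%, beside 2.2% of measured genes), an estrogen-related receptor match in 1 (1.37%, beside 0.883%) and a TATAAA match in 7 (9.59%, beside 8.64%). The 12 genes with an NRF1 match had a median difference of -0.11 between Flk1+ and Snail-induced Flk1- cells, with 9 lower, and the 61 without one -0.24, with 53 lower. The 14 genes with an ETS match had a median of -0.16, with 13 lower, and the 59 without one -0.23, with 49 lower. A link between motif and difference was not tested. These are matches of letters in a fixed window, not binding sites.

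Many respiratory genes start back to back with another gene. Of the 73, 18 (24.7%) had a measured neighbour on the other strand whose start lay within 1000 bases upstream, as had 11.7% of measured genes; this was examined after the values were seen. Timm8b, an import chaperone gene, starts 52 bases from Sdhd and stood at 2211, 2073 and 1345, lower by 0.62 in Flk1+ than in Snail-induced Flk1- cells where Sdhd was lower by 0.55. Phf14 starts 379 bases from Ndufa4 and stood at 1344, 1930 and 3023, higher at both steps as Ndufa4 was. Other pairs parted. Lrrc41, 199 bases from Uqcrh, was higher by 0.55 where Uqcrh was lower by 0.18. Gabpa, which encodes an ETS factor and starts 148 bases from Atp5j, stood at 1135, 1199 and 1141, and Atp5j at 4273, 4568 and 4435, both nearly level. Of the 18 neighbours, 13 (72.2%) were lower in Flk1+ than in Snail-induced Flk1- cells, beside 49.9% of all measured genes.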

How the data were processed

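The submitters deposited 1 linear intensity per probe set for 45037 probe sets on each of 3 arrays. Per the labels' protocols, biotinylated cRNA was made from 2 ug of column-purified RNA by the Affymetrix procedure. The sources used here do not give the summary method or scaling. Array medians were 42.7, 42.4 and 44.6, and values were used as deposited. Probe sets with 1 symbol (34945) in the platform annotation were used; checking symbols by Entrez ID against GRCm38.p6 changed 0. Each gene took the probe set with the highest mean of log2(value + 9.53). Folds are 2 to the power of the difference on this scale, which understates dim genes. Members and lists were chosen with earlier results of these data known. Named genes were, per complex, up to 3 with the largest difference each way, all past 2-fold, the isoforms and complex I core subunits, and from each list up to 4; some are omitted, and others were added after their values were seen. The summary step was tested on simulated data. Python 3.11.15, pandas 2.3.3 and numpy 2.4.6 were used. Promoter windows came from RefSeq (GRCm38.p6). Scaling, probe set choice, offset, floor, membership and fold were varied.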

Additional observations from a re-analysis of the deposited data

How the results depend on the processing

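No paired analysis and no leaving out of replicates was possible because each group had 1 array. Over 12 alternatives the median of the respiratory chain genes stayed negative in the second comparison (-0.23 to -0.15) and in the third (-0.23 to -0.14), while in the first it ran from -0.08 to 0.02. The share of genes lower in the second comparison ran from 80.6% to 89.8%. A median is said to move when it shifts by 0.1 or more. In the first comparison complex II turned from 0.13 to -0.0126 with the mean of all probe sets, and complex IV moved from 0.03 to -0.10 (unrounded -0.095) once probe sets with an s, x or a suffix, which may match related transcripts, were left out; in the third, the same step moved complex II from -0.17 to -0.27 and complex IV from -0.09 to -0.19. Counts at 2-fold are small. In the first comparison 1 gene was lower with centring, with the mean of probe sets and with no offset. In the second, 0 were higher with quantile normalisation, an offset at the 40th percentile, a floor at the 60th percentile or the restricted complex IV forms left out (chosen after the values were seen), which also left 0 lower there and in the third; in the third 1 was lower with the larger offset. The cause of these moves was not tested. At 1.5-fold the first comparison had 1 higher and 1 lower, the second 1 higher and 4 lower, and the third 0 higher and 10 lower. The shares of all measured genes, higher and lower, were 8.48% and 7.82%, 12.5% and 11.7%, and 16.7% and 14.1%. With the lower level at 80% or less of the other, the counts were 2 higher and 5 lower, 2 higher and 23 lower, and 1 higher and 23 lower. The shares of all measured genes were here 20% and 17.5%, 23.7% and 23.2%, and 27.7% and 24.8%. Each count of 23, or 26.1%, is thus near the share of all measured genes. Of 50 named genes, Sdha, Atp5g1 and Ndufs8 in the first comparison, Uqcrq in the second and Atp5h in the third changed sign from a difference of 0.1 or more with another choice of probe sets.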

Other observations

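Probe sets shared between a respiratory chain gene and a near copy do not enter the comparisons and are given here as values. The probe set of Ndufs6 and its copy Ndufs6b stood at 2193, 2115 and 1358 in untreated Flk1-, Snail-induced Flk1- and Snail-induced Flk1+ cells, a log2 difference of -0.64 between the last 2, below each of the 35 measured complex I subunits. Both probe sets of Ndufb4, Ndufb4b and Ndufb4c were lowest in Flk1+ cells, at 2561, 2826 and 1985 and at 2088, 2075 and 1724. The probe set of Ndufs5 and its pseudogene was nearly level, at 1326, 1350 and 1375, as Ndufs5 itself was at 725, 746 and 749. The brighter of the probe sets of Ndufa11 and Ndufa11b stood at 1511, 1561 and 1403.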
